A study of Mus musculus with 10 samples.

Results

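The genes that build the kinetochore and run the spindle checkpoint were compared between spermatogenic cells labelled Ino80WT and Ino80cKO. They were every gene row whose symbol starts with Cenp, plus a written list of outer kinetochore, checkpoint, Aurora kinase, passenger complex, shugoshin and anaphase genes. This gave 46 of the 23420 gene rows, and all 46 were among the 15265 genes that passed the filter on low counts. The smallest count of any of them in any library was 91, so none was near the detection limit. The rule that picks them uses gene symbols and no threshold on a measured value.

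PolyA RNA was sequenced from testes of mice of mixed background at postnatal day 18, in 5 libraries labelled Ino80WT and 5 labelled Ino80cKO. Ino80cKO testes carried a deletion of Ino80, the ATPase of the INO80 chromatin remodeller, driven by Stra8-Cre, a Cre that acts in male germ cells from the spermatogonial stages on; the labels do not say whether Ino80WT mice carried the Cre or floxed alleles. Tubules were digested with enzymes and filtered, with no sorting described, so cells other than germ cells can be present. The libraries are called replicates, but separate animals are not named, and the p-values therefore reflect only how much these libraries vary, part of which may be technical.

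Gene counts per library lay between 16750609 and 23700094, and 3 counts correspond to 0.127 to 0.179 CPM (counts scaled to library size, with TMM factors). That floor covers counting error only. The Ino80 row averaged 94.96 ± 12.6 CPM (SD, n = 5) in the Ino80WT libraries and 96.1 ± 1.37 CPM in the others, with a log2 fold change of 0.02 ± 0.09 (SE; edgeR adjusted p = 0.889). The labels do not name the deleted exons and a count over the whole gene does not test them, so this row does not check the genotype. Germ cell markers and Sertoli cell markers were both abundant: the mean log2 CPM of 15 pachytene and diplotene markers was 7.06 to 7.99 in the Ino80WT libraries, and that of 12 Sertoli markers 6.75 to 7.46.

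The kinetochore is the protein assembly that ties a chromosome's centromere to spindle microtubules. Its inner layer, the CENP proteins of the constitutive centromere-associated network, sits on nucleosomes with the histone variant CENP-A; its outer layer, made of KNL1 and the MIS12 and NDC80 complexes, grips the microtubule. The spindle checkpoint holds back the anaphase-promoting complex (APC/C) through its activator CDC20 until every kinetochore is attached, and Aurora kinases correct wrong attachments. In the testis these genes serve both the mitotic divisions of spermatogonia and the meiotic divisions of spermatocytes. At this age, meiotic prophase cells and dividing spermatogonia are both present.

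Of the 46 genes, 28 were called lower in Ino80cKO (60.9%) and 2 higher (4.35%), with 16 not called, by edgeR's quasi-likelihood test at a Benjamini-Hochberg adjusted p below 0.05 over all genes tested. Among all genes tested, 27.6% were called lower and 18.3% higher. In 23 of the 46 every Ino80cKO library lay below every Ino80WT library, against 22% of all genes tested, and in 1 every Ino80cKO library lay above, against 9.96%. Here and below, overlap of single genes was judged on CPM with TMM factors. It was not counted by library totals, where it can differ. The median log2 fold change (Ino80cKO over Ino80WT) of the 46 was -0.36, with a range of -1.18 to 0.36, and the median of all genes tested was 0.02. Most changes were modest: 1 of the 46, Aurkc, was lower by 2-fold or more, and called decreases ran from 16.6% to 55.8%. In bulk cells, fewer cells of a type and less RNA per cell cannot be told apart, and this holds for every value here.

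The scaling of the libraries set part of these counts. With library totals in place of TMM factors, the median of all genes tested moved from 0.02 to 0.19, and the median of the 46 moved from -0.36 to -0.18. The median of the 46 minus that of all genes tested was -0.37 with either scaling. New scaling factors shift all genes by nearly the same amount, so this difference could hardly change and tests nothing. By library totals 19 of the 46 were called lower (41.3%) and 4 higher, against 19.2% and 35.9% of all genes tested. Bub1, Bub1b, Cenpj, Cenpo, Cenpt, Espl1, Nsl1, Pmf1 and Spc24 lost their calls under that scaling, and Incenp and Mis12 were then called higher. For 9 uncalled genes with an estimate below 0, the estimate was 0 or above by library totals.

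**Figure D1:**
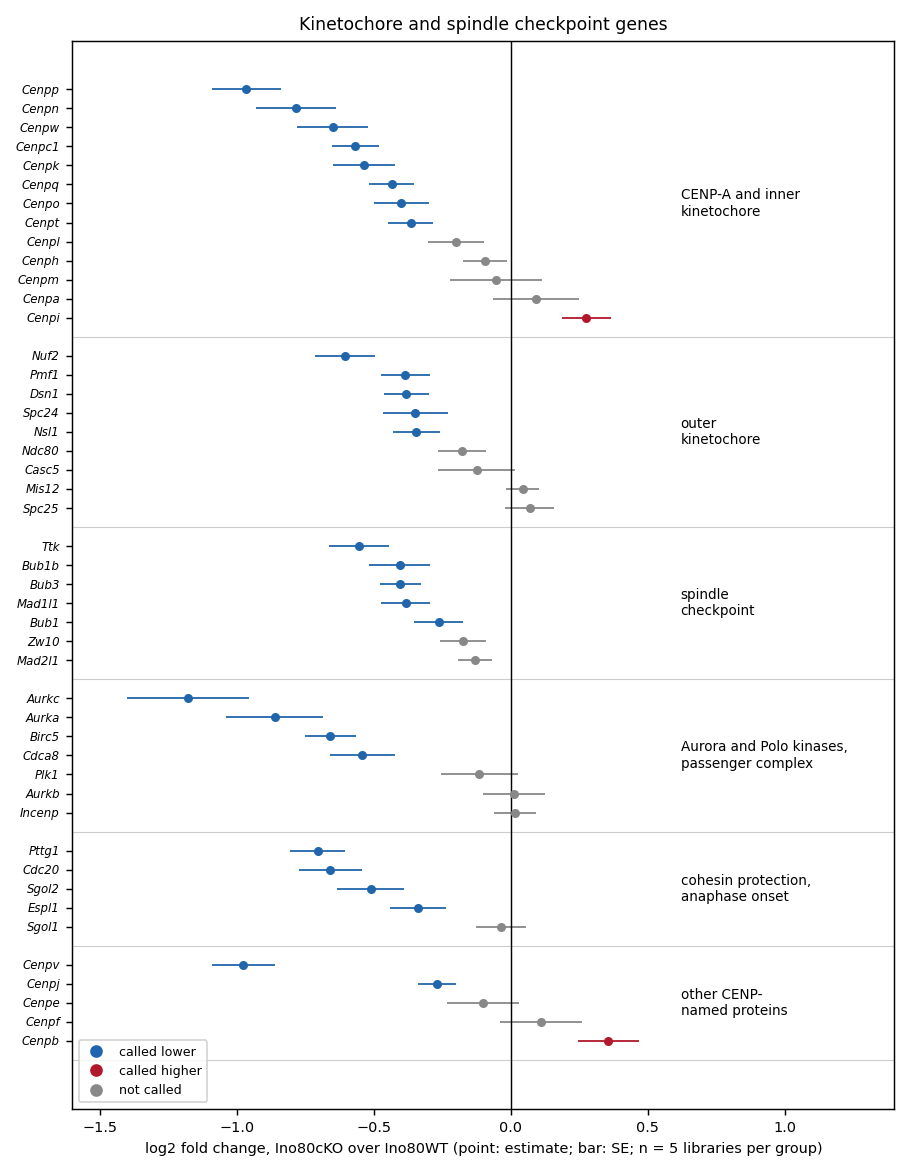
Log2 fold change (Ino80cKO over Ino80WT, x axis) of each of the 46 genes, in role groups on the y axis; points are edgeR estimates, bars their SE, from 5 libraries per group, and colour gives the call at adjusted p below 0.05. Most called genes (28, blue) lie left of 0, 2 (red, Cenpi and Cenpb) lie right of it, and every role group also holds uncalled genes (grey).

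**Figure D2:**
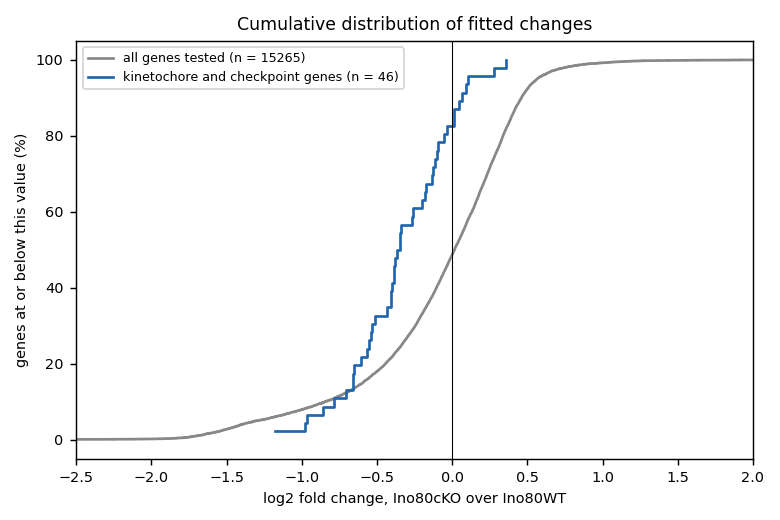
Share of genes (y axis, in percent) at or below each log2 fold change (x axis, Ino80cKO over Ino80WT), for the 46 genes (blue) and all 15265 genes tested (grey). The blue curve crosses the middle at -0.36 and the grey one at 0.02; below about -0.7 the grey curve is the higher, and 1179 of all genes tested and 1 of the 46 were lower by 2-fold or more.

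Stretches upstream of 6 of these genes, picked by hand, are shown. The group is a textbook case of genes transcribed together in the cell cycle. Short elements of 3 kinds recur in such promoters. The CHR, searched as TTTGAA, is bound by MuvB-containing complexes; the CCAAT box is bound by NF-Y; and CAGTTG is a core of MYB family sites. Each was searched on both strands from 250 bases before to 50 bases after the RefSeq start (table on GRCm38.p6, the build also called mm10). The sequences below are the 150 bases before the start, 5′ to 3′ on the gene's strand, with matches to any of the 3 motifs, or to their reverse complements, in capitals. Cdc20 holds all 3 motifs close to its start, and Espl1, Cenpn and Cenpw hold a CHR and a CCAAT box. These genes were called lower. Spc25 holds both as well, its CHR lying after the start and so outside the printed bases, and was not called. Cenpi was called higher, with no CHR in the searched window. It holds a MYB core and a CCAAT box, the latter after the start and so outside the printed bases. The 6 stretches lie at chr4:118437344-118437493 (Cdc20, minus strand), chr15:102296143-102296292 (Espl1, plus), chr8:116921590-116921739 (Cenpn, plus), chr10:30200541-30200690 (Cenpw, minus), chr2:69206214-69206363 (Spc25, minus) and chrX:134307934-134308083 (Cenpi, plus).
Cdc20: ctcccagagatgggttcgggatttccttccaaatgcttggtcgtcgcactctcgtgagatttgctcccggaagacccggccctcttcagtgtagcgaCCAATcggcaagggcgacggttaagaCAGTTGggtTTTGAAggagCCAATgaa
Espl1: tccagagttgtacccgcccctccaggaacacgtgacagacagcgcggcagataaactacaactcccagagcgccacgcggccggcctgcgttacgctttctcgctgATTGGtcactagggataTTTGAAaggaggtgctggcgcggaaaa
Cenpn: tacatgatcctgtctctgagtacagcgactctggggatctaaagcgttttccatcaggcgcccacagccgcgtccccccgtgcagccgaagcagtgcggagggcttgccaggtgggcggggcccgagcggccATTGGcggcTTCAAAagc
Cenpw: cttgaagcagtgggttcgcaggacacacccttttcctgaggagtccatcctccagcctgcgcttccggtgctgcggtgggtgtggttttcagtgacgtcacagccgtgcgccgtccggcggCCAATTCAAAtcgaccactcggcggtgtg
Spc25: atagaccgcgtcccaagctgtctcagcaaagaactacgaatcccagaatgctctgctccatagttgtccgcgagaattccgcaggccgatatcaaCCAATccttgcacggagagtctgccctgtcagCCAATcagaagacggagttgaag
Cenpi: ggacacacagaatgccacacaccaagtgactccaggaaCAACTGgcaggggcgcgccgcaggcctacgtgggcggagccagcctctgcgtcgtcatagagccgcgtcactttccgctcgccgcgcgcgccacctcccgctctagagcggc

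In Cdc20 the CHR began 18 bases before the start and the nearer CCAAT box 8 bases before it. In Cenpn the CHR and the CCAAT box, both on the opposite strand, began 9 and 18 bases before the start. In Cenpw they shared 1 base, so that these letters count for both motifs. The motifs were common in the group: of the 42 genes with a RefSeq promoter, 18 held a CHR (42.9%, against 17.9% of all 32851 promoters in the table), 27 a CCAAT box (64.3% against 37.4%) and 8 the MYB core (19% against 13.7%). Neither the CHR nor the CCAAT box was more frequent among the genes called lower than among those not called. A CHR was found in 10 of the 26 genes called lower (38.5%) and in 8 of the 14 not called (57.1%), and a CCAAT box in 16 (61.5%) and 10 (71.4%). Neither was found in 10 of the 26 genes called lower and in 1 of the 14 not called. Both were found in 10 of the 26 and in 5 of the 14, whereas every printed gene called lower holds both. Unlike the CHR and the CCAAT box, the MYB core was more frequent among the genes called lower, in 6 of the 26 (23.1%) and 1 of the 14 (7.14%). None of these splits was tested. A match describes letters in this window and is not evidence of binding, and where a gene has several promoters in the table the first was used. For 35 of the 42 genes, the bases just after the start were found in a transcript of the gene on the same strand. The other windows were counted too and may not lie at a start in use. That of Sgol2 (chr1:57985090-57985389) lies well before its annotated exons, which begin at 57995971.

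Per length of exon, the most abundant of the 46 in Ino80WT were Cdc20, at 86.6 CPM per kb of exon, Cenpv at 71.8 and Bub1 at 62.2. Aurka at 37.1 and Bub1b at 33.3 CPM per kb followed. The scarcest by this measure were Cenpi at 3.08, Cenpa at 3.33 and Cenpl at 3.56 CPM per kb. The length merges all annotated exons of a gene and can exceed that of the transcripts present. The order therefore depends on the annotation: in CPM alone, Cenpa (19.5) was above Aurkc (12.6) in Ino80WT. Abundant and scarce genes were both among those called lower. Cdc20, Cenpv and Bub1, which led the order, were all called lower, as was Cenpw at 4.44 CPM per kb.

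Log2 fold changes of inner kinetochore genes ran from -0.96 to 0.28. Of 13 genes (CENP-A and the centromere-associated network), 8 were called lower, 1 higher and 4 were not called (6 lower and 1 higher by library totals). Their median log2 fold change was -0.40. Among all genes tested, 27.6% were called lower and 18.3% higher, and by library totals 19.2% and 35.9%. Cenpp (chr13:49464023-49652785), a subunit of the CENP-O group, fell furthest of the 13. Its level was 57.2, 46.5, 58.6, 47.9 and 64.5 CPM in Ino80WT libraries 1 to 5, and 28.4, 28.5, 20.8, 31.0 and 32.0 CPM in Ino80cKO libraries 1 to 5. Every Ino80cKO library lay below every Ino80WT library, and Cenpp fell by 48.8% (log2 fold change -0.96 ± 0.13 SE, edgeR adjusted p = 0.000119). In the GENCODE M21 annotation 12.6% of Cenpp's exon bases overlap exons on the opposite strand, mostly of Ippk, and whether the counting used strand is not given in the sources.

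Cenpc1 encodes CENP-C, the scaffold that links CENP-A nucleosomes to the outer kinetochore. It stood at 104, 111, 127, 102 and 135 CPM in Ino80WT and at 76.1, 78.2, 74.4, 80.0 and 81.5 CPM in Ino80cKO. The Ino80cKO libraries were tightly grouped and all below Ino80WT (log2 -0.57 ± 0.08, edgeR adjusted p = 0.000259). Cenpn, whose product reads the CENP-A nucleosome directly, went from 65.6, 73.9, 103, 58.6 and 84.8 CPM to 45.8, 39.6, 37.5, 47.4 and 53.7 CPM. The groups again did not overlap, with library 3 highest in Ino80WT and lowest in Ino80cKO (log2 -0.78 ± 0.15, edgeR adjusted p = 0.00119). Cenpq, a partner of Cenpp, gave 79.9, 65.4, 76.4, 62.9 and 79.0 CPM in Ino80WT and 50.6, 52.1, 53.5, 55.3 and 57.5 CPM in Ino80cKO. Its fall was smaller, at log2 -0.43 ± 0.08 (edgeR adjusted p = 0.00124), also without overlap.

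The other inner genes called lower were Cenpw (-0.65) and Cenpt (-0.36), which form a histone-fold module, Cenpk (-0.54) and Cenpo (-0.40). Cenpo shared 22.5% of its exon bases with opposite-strand exons of Adcy3 and Ptrhd1, and its groups overlapped. Cenph, a partner of Cenpk, was the most abundant uncalled inner gene. Its Ino80WT libraries held 27.1, 23.9, 23.0, 23.5 and 26.3 CPM and its Ino80cKO libraries 22.0, 23.9, 21.9, 23.0 and 25.1 CPM. These ranges overlapped, and the log2 fold change of -0.09 had a 95% interval of -0.27 to 0.08. Cenpa, the CENP-A histone itself, had an estimate of 0.09 (-0.25 to 0.43), Cenpm one of -0.05 (-0.42 to 0.31) and Cenpl one of -0.20 (-0.42 to 0.02).

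Cenpi, singled out here after its values were seen, moved the other way. It encodes a subunit of the group that holds CENP-H, CENP-K and CENP-M, and is the X-linked gene among the 46 (chrX:134308084-134362639). Ino80WT libraries held 18.6, 18.7, 15.004, 16.4 and 19.0 CPM and Ino80cKO libraries 21.4, 22.2, 19.7, 20.1 and 22.6 CPM. Every Ino80cKO library was above every Ino80WT library, and the log2 fold change was 0.28 ± 0.09 (edgeR adjusted p = 0.0255). The call was near the threshold: the adjusted p was 0.0582 without Ino80WT library 3, 0.0527 without Ino80WT library 4 or Ino80cKO library 1, 0.0614 without Ino80cKO library 2 and 0.0524 without Ino80cKO library 5. Of the 599 X-linked genes tested, 296 were called higher in Ino80cKO (49.4%), against 18.3% of all genes tested.

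**Figure D3:**
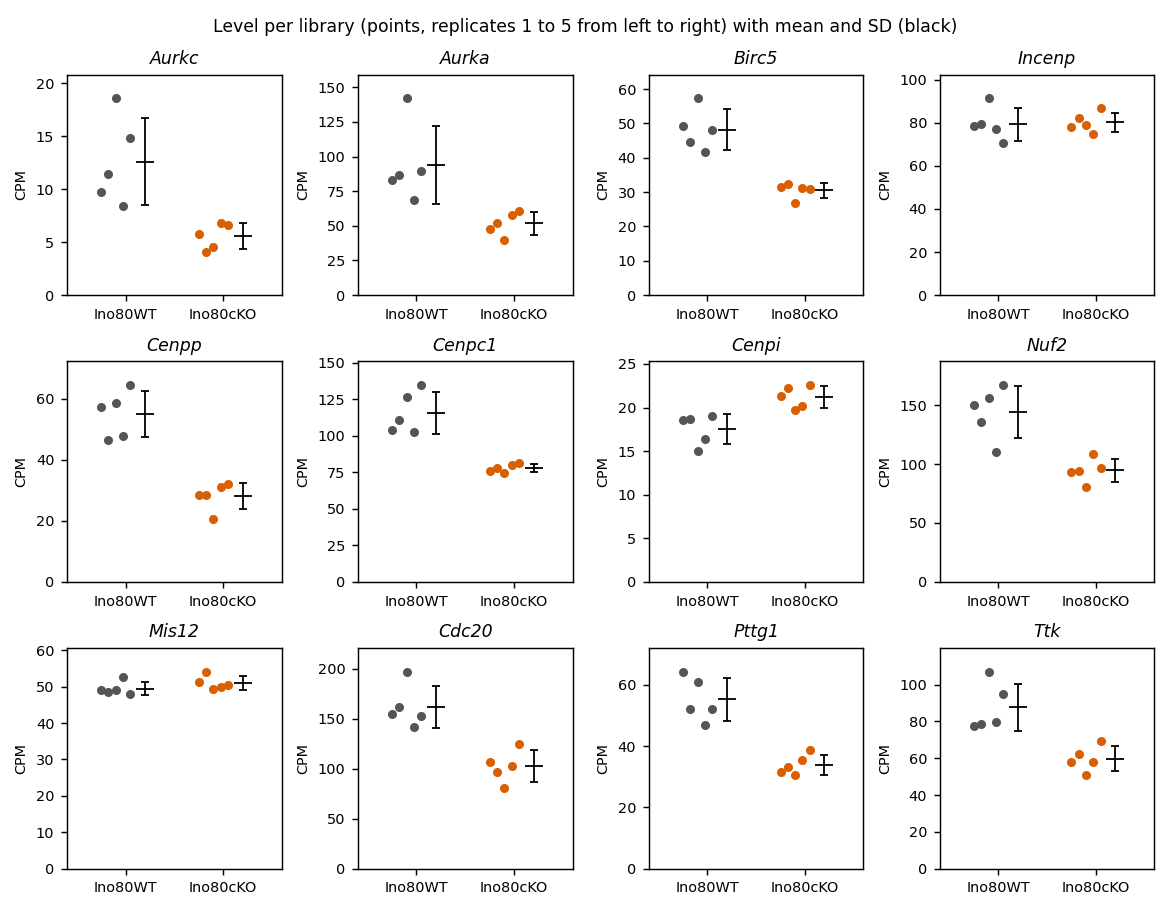
Level in CPM (y axis, from 0) of 12 of the genes in each library (points, replicates 1 to 5 from left to right) with the mean and SD of each group (black), n = 5 libraries per group. Aurka shows the wide Ino80WT spread (68.7 to 142 CPM), Birc5, Cenpc1 and Cdc20 separate fully, Incenp and Mis12 overlap, and Cenpi is the one drawn that is higher in Ino80cKO.

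In the outer kinetochore 5 of 9 genes were called lower, 0 higher and 4 were not called, with a median log2 fold change of -0.34. By library totals 2 of the 5, Nuf2 and Dsn1, kept a lower call and 1 gene, Mis12, was called higher. Of all genes tested 27.6% were lower and 18.3% higher in the main fit, and 19.2% and 35.9% by library totals. Nuf2 (chr1:169497934-169531464), which with NDC80 forms the microtubule-binding end of the NDC80 complex, fell most. Ino80WT libraries held 151, 136, 156, 110 and 167 CPM and Ino80cKO libraries 93.7, 94.1, 80.5, 108 and 96.6 CPM. The lowest Ino80WT library was just above the highest Ino80cKO one, and the log2 fold change was -0.61 ± 0.11 (edgeR adjusted p = 0.000972). Its direct partner Ndc80 averaged 58.3 ± 5.64 CPM in Ino80WT and 51.6 ± 4.77 CPM in Ino80cKO, and was not called (log2 -0.18, 95% interval -0.37 to 0.01, edgeR adjusted p = 0.111). Without Ino80cKO library 5, Ndc80 was called lower (log2 -0.23, edgeR adjusted p = 0.0392).

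The MIS12 complex bridges inner and outer kinetochore, and 3 of its 4 genes were called lower. Dsn1 held 87.5, 84.8, 100.2, 81.0 and 99.6 CPM in Ino80WT and 70.2, 68.0, 62.4, 70.9 and 76.2 CPM in Ino80cKO. All Ino80cKO values were below all Ino80WT values (log2 -0.38 ± 0.08, edgeR adjusted p = 0.00255). Pmf1 held 40.3, 31.9, 37.5, 32.9 and 32.2 CPM against 25.9, 25.8, 27.1, 24.8 and 30.2 CPM, a fall of 23.4% without overlap (edgeR adjusted p = 0.00439). Nsl1 held 18.9, 20.2, 24.0, 20.8 and 21.2 CPM against 16.8, 16.2, 16.0, 15.9 and 17.9 CPM, a fall of 21.2% without overlap (edgeR adjusted p = 0.00624). The fourth gene, Mis12 itself, was among the steadiest of the 46, named here after its values were seen. It averaged 49.5 ± 1.77 CPM in Ino80WT and 51.0 ± 1.88 CPM in Ino80cKO (log2 0.04, 95% interval -0.09 to 0.18), and by library totals it was called higher (log2 0.22, edgeR adjusted p = 0.0224). Of its exon bases 7.69% overlap opposite-strand exons of Derl2, so its count, and its ratios below, may include reads of that gene.

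Casc5, the KNL1 scaffold that recruits the checkpoint kinases and BUB proteins, was the most abundant uncalled outer gene. Its Ino80WT libraries spread widely, at 70.9, 96.5, 130, 109 and 130 CPM, around Ino80cKO libraries at 92.8, 92.3, 99.9, 101.4 and 106 CPM. The interval of its log2 fold change ran from -0.43 to 0.18. Without Ino80WT libraries 1 and 2, which had the largest share of counts on the ribosomal RNA row Rn45s (7.08% in library 1), Casc5 was called lower. Of the remaining NDC80 subunits, Spc25 had an estimate of 0.07 (-0.12 to 0.26) and Spc24 one of -0.35 (edgeR adjusted p = 0.0302). The Spc24 call was lost, at adjusted p between 0.0502 and 0.0949, when Ino80WT library 1 or 3 or Ino80cKO library 1, 3 or 4 was left out.

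Checkpoint genes were called lower in 5 of 7 cases and higher in 0 (3 and 0 by library totals), with a median log2 fold change of -0.38. The shares of all genes tested were 27.6% lower and 18.3% higher, and by library totals 19.2% and 35.9%. Ttk, the MPS1 kinase that starts checkpoint signalling, fell most of the 7 (chr9:83834689-83872389). It held 77.6, 78.3, 107, 79.9 and 95.1 CPM in Ino80WT and 58.1, 62.2, 50.9, 57.7 and 69.4 CPM in Ino80cKO. The groups did not overlap, and the log2 fold change was -0.55 ± 0.11 (edgeR adjusted p = 0.00149). Bub3, which docks BUB1 and BUBR1 on KNL1, held 100.9, 93.0, 98.7, 84.5 and 86.3 CPM against 68.1, 73.2, 63.8, 69.5 and 75.6 CPM. It too separated fully (log2 -0.40 ± 0.07, edgeR adjusted p = 0.00102). Mad1l1, which brings MAD2 to unattached kinetochores, held 43.2, 35.4, 48.3, 36.9 and 40.8 CPM against 30.5, 30.5, 30.8, 32.3 and 32.6 CPM. The Ino80cKO libraries were nearly equal and all lower (log2 -0.38 ± 0.09, edgeR adjusted p = 0.00402).

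Bub1b, which encodes BUBR1 of the mitotic checkpoint complex, overlapped by 1 library. Its Ino80WT libraries held 129, 135, 176, 128 and 144 CPM and its Ino80cKO libraries 109, 110, 86.9, 104 and 128 CPM. Ino80cKO library 5 reached just above the lowest Ino80WT library, and the log2 fold change was -0.41 ± 0.11 (edgeR adjusted p = 0.0109). Without library 3 of both groups it was -0.23. Bub1, the kinase that marks the inner centromere for shugoshin, went from 271 ± 32.1 to 226 ± 16.7 CPM (log2 -0.26, edgeR adjusted p = 0.0302). That call was lost, at adjusted p between 0.0552 and 0.0922, when Ino80WT library 3 or 5 or Ino80cKO library 1, 2 or 3 was left out.

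Mad2l1, the MAD2 protein that binds CDC20, was not called. Ino80WT libraries held 68.9, 63.4, 61.0, 65.3 and 65.9 CPM and Ino80cKO libraries 58.5, 56.5, 60.4, 58.4 and 62.7 CPM. The ranges overlapped slightly, and the log2 fold change of -0.13 had a 95% interval of -0.27 to 0.00. Zw10, part of the complex that loads dynein and MAD1 at kinetochores, had an estimate of -0.17 (-0.36 to 0.01).

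The Aurora and Polo kinases and the chromosomal passenger complex held both the largest fall and some of the flattest values. Of 7 genes, 4 were called lower, 0 higher and 3 were not called (4 lower and 1 higher by library totals). The median log2 fold change was -0.54. Lower calls made up 27.6% of all genes tested and higher calls 18.3%, or 19.2% and 35.9% by library totals. The passenger complex joins an Aurora kinase to the scaffold INCENP, survivin (Birc5) and borealin (Cdca8); Aurkb is the kinase of mitotic cells and Aurkc its meiotic relative, enriched in germ cells. Aurkc (chr7:6995300-7003091) held 9.76, 11.4, 18.6, 8.42 and 14.8 CPM in Ino80WT and 5.79, 4.10, 4.496, 6.83 and 6.62 CPM in Ino80cKO. Every Ino80cKO library was lower, and the fall was 2.26-fold (log2 -1.18 ± 0.22, edgeR adjusted p = 0.00124). Aurkb averaged 18.4 ± 2.27 CPM in Ino80WT and 18.6 ± 2.29 CPM in Ino80cKO (log2 0.01, 95% interval -0.23 to 0.26).

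Aurka, the spindle pole kinase, fell by 45.0%, with 1 high Ino80WT library. Ino80WT libraries held 82.9, 86.5, 142, 68.7 and 89.3 CPM and Ino80cKO libraries 48.0, 51.7, 40.1, 57.7 and 61.0 CPM. All Ino80cKO libraries were lower (log2 -0.86 ± 0.18, edgeR adjusted p = 0.00223), and without library 3 of both groups the log2 fold change was -0.56. Plk1, the Polo kinase that acts at kinetochores and centrosomes, was also highest in Ino80WT library 3, but its groups overlapped (log2 -0.11, 95% interval -0.42 to 0.19).

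Birc5 (chr11:117849251-117855743) held 49.2, 44.7, 57.4, 41.6 and 48.0 CPM in Ino80WT and 31.4, 32.4, 26.8, 31.1 and 30.9 CPM in Ino80cKO. The gap between the groups was wide, and Birc5 fell by 36.6% (log2 -0.66 ± 0.09, edgeR adjusted p = 0.00018). Cdca8 held 117, 109, 140, 94.3 and 107 CPM against 82.3, 77.7, 60.4, 77.8 and 91.2 CPM. It fell by 31.3% without overlap (log2 -0.54 ± 0.12, edgeR adjusted p = 0.00309), and its log2 fold change was -0.35 without library 3 of both groups. Incenp held 78.4, 79.7, 91.5, 77.0 and 70.5 CPM against 78.2, 82.3, 79.2, 75.1 and 86.8 CPM. These groups lay on top of each other (log2 0.02, 95% interval -0.15 to 0.18), although by library totals Incenp was called higher (log2 0.19, edgeR adjusted p = 0.0442).

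Among the genes of cohesin protection and anaphase onset, 4 of 5 were called lower and 0 higher (3 and 0 by library totals). Their median log2 fold change was -0.51. Among all genes tested, 27.6% were called lower and 18.3% higher, and by library totals 19.2% and 35.9%. Pttg1 (chr11:43420250-43426251), the securin that inhibits separase, held 64.3, 52.3, 60.9, 46.9 and 52.1 CPM in Ino80WT and 31.5, 33.1, 30.6, 35.5 and 38.9 CPM in Ino80cKO. The groups were well apart (log2 -0.71 ± 0.10, edgeR adjusted p = 0.000185). Cdc20, whose upstream sequence is shown above, held 155, 162, 197, 142 and 153 CPM against 107, 96.8, 80.8, 103 and 125 CPM. It fell by 36.6% without overlap (log2 -0.66 ± 0.12, edgeR adjusted p = 0.000736).

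Sgol2, the shugoshin that protects centromeric cohesin in meiosis, held 102, 107, 148, 108 and 148 CPM in Ino80WT and 78.7, 81.8, 79.3, 90.1 and 100.1 CPM in Ino80cKO. The gap between groups was small (log2 -0.51 ± 0.12, edgeR adjusted p = 0.00504), and 35% of its exon bases overlap opposite-strand exons of Kctd18. Espl1, the separase that cuts cohesin, held 120, 151, 168, 135 and 132 CPM against 109, 107, 97.0, 116 and 130 CPM. Its groups overlapped (log2 -0.34 ± 0.10, edgeR adjusted p = 0.0158), and the call was lost without Ino80cKO library 3 (adjusted p = 0.0537). Sgol1, the shugoshin best known from mitosis, held 23.8, 21.4, 22.6, 19.5 and 20.6 CPM against 20.4, 22.6, 21.0, 17.9 and 23.2 CPM. It was not called (log2 -0.04, 95% interval -0.24 to 0.17).

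The remaining CENP-named genes share a name more than a place, and 2 of 5 were called lower, 1 higher and 2 not called (1 lower and 1 higher by library totals). Among all genes tested, 27.6% were called lower and 18.3% higher, and by library totals 19.2% and 35.9%. The 1 of 5 higher in the main fit and the 1 of 5 lower by library totals were near these shares. Cenpv (chr11:62524946-62539261), a centromere-associated protein also linked to microtubules, had the smallest adjusted p of all 46. It held 136, 120, 161, 106 and 128 CPM in Ino80WT and 61.0, 60.7, 58.5, 76.0 and 74.3 CPM in Ino80cKO. Its level fell by 49.2% with a wide gap between groups (log2 -0.98 ± 0.12, edgeR adjusted p = 8.19e-05). Cenpj, a centriole assembly protein, held 62.5, 67.2, 72.0, 68.1 and 75.4 CPM against 53.8, 60.4, 55.9, 56.9 and 59.5 CPM. Small as it was, the fall left no overlap (log2 -0.27 ± 0.07, edgeR adjusted p = 0.00766).

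Cenpb, which binds a DNA box in centromeric satellite repeats, was called higher. Ino80WT libraries held 69.5, 65.3, 46.7, 61.8 and 51.8 CPM and Ino80cKO libraries 77.1, 80.2, 83.6, 69.7 and 67.2 CPM. The groups overlapped (log2 0.36 ± 0.11, edgeR adjusted p = 0.0196), and the adjusted p was 0.0527 without Ino80WT library 5. Without Ino80WT libraries 1 and 2, its log2 fold change was 0.55. Cenpe, a kinesin that carries chromosomes to the plate, held 121, 119, 186, 136 and 156 CPM against 112, 125, 141, 131 and 162 CPM. Cenpf, a large protein of the outer corona, held 248, 306, 473, 389 and 415 CPM against 352, 364, 414, 403 and 441 CPM. Both overlapped widely, with 95% intervals of -0.39 to 0.18 for Cenpe and -0.22 to 0.43 for Cenpf.

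Subunits of one complex were then set against each other within each library, a ratio that no scaling of libraries can move. All 33 pairs of members in 7 textbook complexes were compared by an exact two-sided permutation test over the 252 assignments of the 10 libraries, whose smallest p is 0.00794. Each ratio was written in the direction that was lower in Ino80cKO, so its sign was fixed by that choice. The ratio differed in 19 pairs at a Benjamini-Hochberg adjusted p below 0.05 over the 33, and 14 pairs did not overlap between groups. Many pairs share a gene, so the 33 are not independent. How often pairs of other genes differ was not computed, and 27.6% and 18.3% of all genes tested were called lower and higher. The counts are thus not shown to be particular to complexes. The passenger complex gave 7 of its 10 pairs, NDC80, MIS12 and CENP-H/I/K/M 3 of 6 each, CENP-O/P/Q 2 of 3, CENP-L/N 1 of 1 and CENP-T/W 0 of 1. These ratios compare changes of transcripts and say nothing of protein amounts.

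In the passenger complex the log2 ratio of Birc5 to Incenp counts went from -0.72 ± 0.14 (SD, n = 5) in Ino80WT to -1.40 ± 0.12 in Ino80cKO, with exact permutation p = 0.00794 and adjusted p = 0.0187. Cdca8 over Incenp moved from 0.51 ± 0.14 to -0.06 ± 0.20, with the same p-values. Aurkb over Incenp was -2.12 ± 0.09 and -2.12 ± 0.14, a difference of -0.01 (exact permutation p = 0.952). The ratio of the meiotic to the mitotic kinase, Aurkc over Aurkb, dropped by 1.16 on the log2 scale, from -0.60 ± 0.49 to -1.76 ± 0.32 (exact permutation p = 0.00794, adjusted p = 0.0187). Aurkc also moved against Cdca8, by -0.60 (exact permutation p = 0.0159, adjusted p = 0.0276), and its ratio to Birc5 differed by -0.49 without passing (exact permutation p = 0.0556, adjusted p = 0.0834). For Birc5 over Cdca8 the difference was -0.11 (exact permutation p = 0.159, adjusted p = 0.21).

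In the MIS12 complex, the pairs that passed were those of Mis12 with each of its 3 partners. Dsn1 over Mis12 moved by -0.42, Pmf1 over Mis12 by -0.43 and Nsl1 over Mis12 by -0.38, each without overlap (exact permutation p = 0.00794, adjusted p = 0.0187). Among Dsn1, Pmf1 and Nsl1 the ratios moved by -0.04 or less in size, with exact permutation p between 0.532 and 0.96. In the NDC80 complex, Nuf2 over Ndc80 moved by -0.42 and Nuf2 over Spc25 by -0.67, with overlap of the groups (exact permutation p = 0.0159, adjusted p = 0.0276). Among inner subunits, Cenpk over Cenpi moved by -0.82, Cenph over Cenpi by -0.37, Cenpn over Cenpl by -0.57 and Cenpp over Cenpo by -0.58, all without overlap (exact permutation p = 0.00794, adjusted p = 0.0187).

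**Figure D4:**
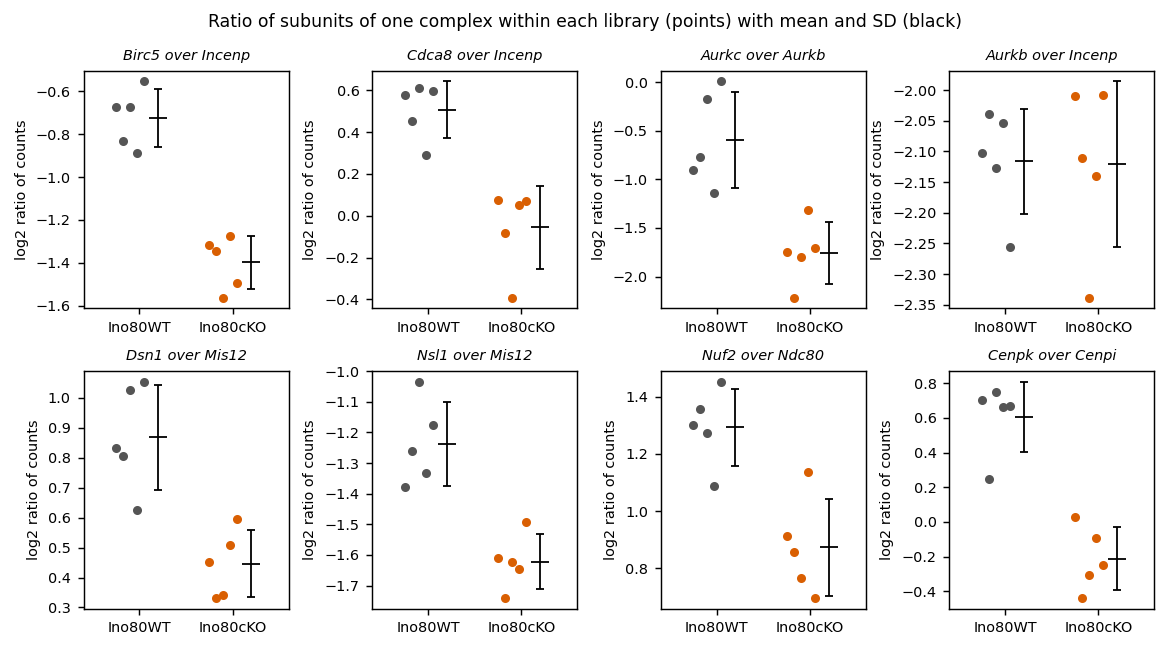
Log2 ratio of the counts of 2 subunits of one complex within each library (y axis), for 8 pairs; points are libraries and black marks the mean and SD of each group, n = 5. Aurkb over Incenp overlaps fully (difference -0.01), Nuf2 over Ndc80 overlaps by 1 library (-0.42), and the other 6 pairs separate, from -0.38 for Nsl1 over Mis12 to -1.16 for Aurkc over Aurkb.

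Other genes of the same machinery were counted from written lists. Of all genes tested, 27.6% were called lower and 18.3% higher, and by library totals 19.2% and 35.9%. Of 26 other kinetochore, centromere-loading and checkpoint genes tested, 15 were called lower and 0 higher (median log2 fold change -0.29; 9 and 2 by library totals). Itgb3bp, the CENP-R subunit that works with Cenpp and Cenpq, fell from 59.2 ± 8.43 to 30.9 ± 4.18 CPM (log2 -0.94 ± 0.12). Stra13, which RefSeq lists as an older symbol of Cenpx, a CENP-T/W partner (Bhlhe40 and Laptm5, which share that older symbol, have rows of their own), fell from 14.1 ± 1.86 to 7.58 ± 0.35 CPM. Zwilch, a partner of Zw10, fell from 107 ± 14.4 to 67.9 ± 6.19 CPM.

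The APC/C is the target of the checkpoint. Of 19 genes for its subunits, activators, inhibitors and E2 enzymes, 4 were called lower and 0 higher. This was a smaller share in both directions than the 27.6% and 18.3% of all genes tested. The median log2 fold change of the 19 was -0.06 (2 lower and 4 higher by library totals). Those that fell included Fbxo43, the meiotic APC/C inhibitor also called EMI2, from 44.4 ± 8.30 to 19.8 ± 3.16 CPM (log2 -1.17 ± 0.14). They also included the E2 enzyme Ube2s (log2 -0.52 ± 0.10) and the catalytic subunit Anapc11 (log2 -0.41 ± 0.11). Of 25 spindle and microtubule regulators, 12 were called lower and 2 higher, with a median of -0.09. With library totals 5 were lower and 5 higher, against 19.2% and 35.9% of all genes tested, so the lower share was near that of all genes. Among them Prc1, the bundler of the central spindle, fell by 0.76 on the log2 scale, Ckap2 fell by 0.48, and the X-linked kinesin gene Kif4 rose by 0.49 with a SE of 0.08.

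Of 20 genes transcribed in dividing cells in general, 8 were called lower and 6 higher (median 0.05; 4 lower and 9 higher by library totals). Ccnb2, a B-type cyclin, fell by 0.84, Gmnn by 0.59 and Mcm7 by 0.50 on the log2 scale. This list held calls in both directions, while the 46 kinetochore and checkpoint genes had 28 lower and 2 higher calls; the difference between the lists was not tested.

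Markers of cell types moved with these genes, and their part in the result was not tested. Of the pachytene and diplotene spermatocyte markers, 15 of 15 were called lower (median -1.49), and their mean log2 CPM was 7.06 to 7.99 in Ino80WT and 5.65 to 6.41 in Ino80cKO. By library totals 14 of the 15 were lower (median -1.31). Leptotene and zygotene markers were lower in 6 of 9 (median -0.44; 7.29 to 7.65 against 6.93 to 7.20), and by library totals 4 were lower and 1 higher (median -0.26). Of the round spermatid markers 5 of 12 passed the filter on low counts and 2 of these were lower (2.99 to 3.70 against 2.02 to 2.76). Spermatogonial markers went both ways, with 1 of 9 lower and 2 higher for undifferentiated and 2 of 8 lower (1 by library totals) and 2 higher for differentiating cells. Among all genes tested, 27.6% were called lower and 18.3% higher, and by library totals 19.2% and 35.9%. In the main fit, the higher calls of both spermatogonial lists and the lower calls for differentiating cells were near these shares.

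Markers of somatic cells were higher or not called. Sertoli markers were called higher in 6 of 12 (6.75 to 7.46 in Ino80WT, 7.27 to 7.87 in Ino80cKO), Leydig markers in 5 of 7 (1.83 to 3.54 against 2.91 to 4.004), peritubular and endothelial markers in 1 of 8 (4.76 to 5.22 against 4.89 to 5.54) and leukocyte markers in 7 of 11 (1.01 to 1.76 against 2.20 to 2.72). Of all genes tested 18.3% were called higher. By library totals the higher calls were 9 Sertoli, 5 Leydig, 5 peritubular and endothelial and 11 leukocyte markers, against 35.9% of all genes tested. None of these lists had a gene called lower with either scaling. Against the same scale, the mean log2 CPM of the 46 genes was 5.75, 5.69, 5.93, 5.67 and 5.80 in Ino80WT and 5.42, 5.42, 5.30, 5.44 and 5.57 in Ino80cKO. With TMM factors, every Ino80cKO mean lay below every Ino80WT mean. As a share of gene counts, which uses no such factors, the groups overlapped. The 46 genes held 0.333% in Ino80cKO library 5 and 0.304% in Ino80WT library 2.

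Library 3 stood at the end of both groups. It was the highest Ino80WT library for 22 of the 46 genes and the lowest Ino80cKO library for 29. It was also highest and lowest for the pachytene and diplotene markers, at 7.99 and 5.65 mean log2 CPM. For Sertoli markers it was instead the lowest Ino80WT (6.75) and the highest Ino80cKO library (7.87). Peritubular and endothelial markers did the same (4.76 and 5.54). Leydig and leukocyte markers were lowest in Ino80WT library 3 (1.83 and 1.01) but not highest in Ino80cKO library 3. The part of cell mix in these values was not tested. Without library 3 of both groups, 25 of the 46 genes were called lower and 1 higher, and the median log2 fold change was -0.25. Leaving out single libraries gave 25 to 29 lower calls.

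**Figure D5:**
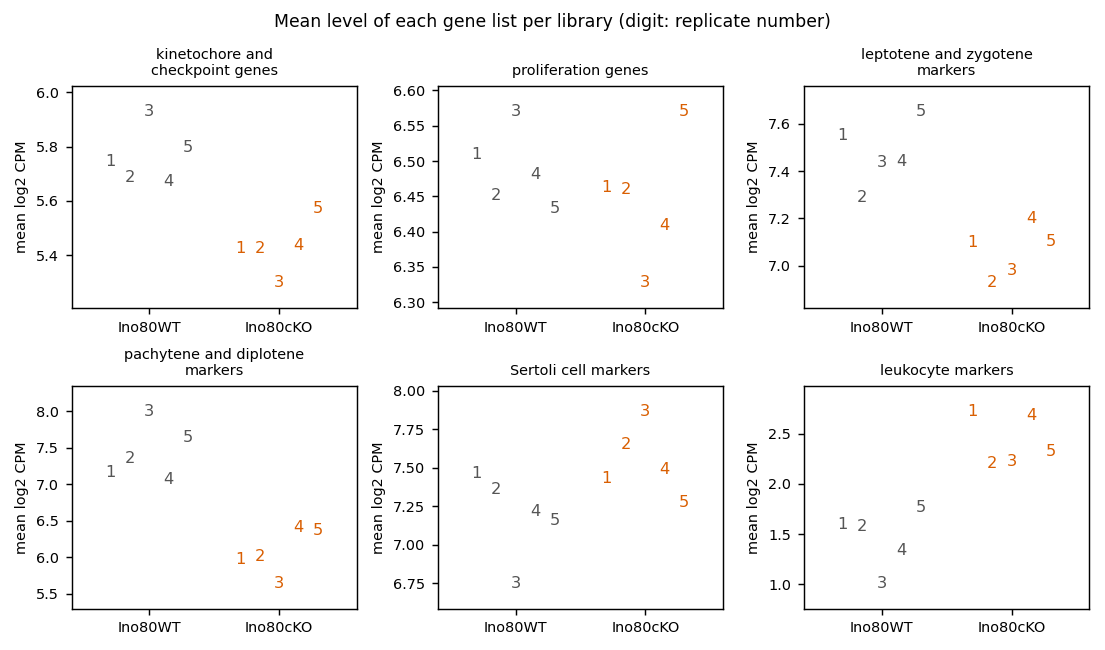
Mean log2 CPM (y axis, scaled to each panel) of 6 gene lists in each library; each digit is the library's replicate number, n = 5 libraries per group. Levels use TMM factors. The 46 genes, the leptotene and zygotene markers and the pachytene and diplotene markers separate downward in Ino80cKO. Leukocyte markers separate upward, and proliferation genes and Sertoli markers overlap. Library 3 lies at an end of several panels.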

How the data were processed

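The authors deposited raw counts per gene for each library, in separate files and without any scaling. Per the submitters' processing notes, TopHat2, HTSeq, DESeq2 and the mm10 build were used, without versions or roles. Neither an annotation nor a strand setting for the counting appears in the sources used here, so reads of a gene and of an opposite-strand gene may not be separable. Each file had 23420 gene rows and 5 rows naming no gene, which held 35.5% to 44.0% of reads and were left out of totals and tests. No 2 libraries were duplicates (lowest chi-square per degree of freedom 8.93).

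Counts were tested with edgeR 4.0.16 (R 4.3.3): filterByExpr (minimum count 10, minimum total 15), TMM factors, genotype as the only term, robust glmQLFit and glmQLFTest, Benjamini-Hochberg over the 15265 genes, threshold 0.05. The SE is the log2 fold change divided by the square root of F, and intervals are 95%. List means of log2 CPM used a prior count of 2. Positions, exon lengths and overlaps are from GENCODE M21 and promoters from RefSeq, both on GRCm38, and 42 of the 46 genes matched a promoter. DESeq2 1.42.0 and the scalings, filters, replicate block and left-out libraries below were alternatives.

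The members and lists were chosen with earlier results of these data known. Genes named with values per library were, per role group, up to 4 with the smallest adjusted p and the uncalled one with the highest mean CPM; of other lists, up to 3 with the smallest adjusted p. Cenpi, Aurkb, Mis12 and the subunit ratios were added after values were seen.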

Additional observations from a re-analysis of the deposited data

Results flagged for a closer look

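In each group of 5 libraries, a library was set apart where its gap to the nearest other, divided by the group's range, passed 0.71 (Dixon's 95% critical value). Of 92 groups (46 genes in both genotypes) 5 passed, and chance alone flags about 1 in 20 groups. Aurka stood at 142 CPM in Ino80WT library 3, with the others at 68.7 to 89.3 CPM. Plk1 stood at 46.4 CPM in Ino80WT library 3, with the others at 28.7 to 31.1 CPM. Birc5 stood at 26.8 CPM in Ino80cKO library 3, with the others at 30.9 to 32.4 CPM. Mis12 stood at 52.5 CPM in Ino80WT library 4, with the others at 48.0 to 49.2 CPM. Spc25 stood at 38.8 CPM in Ino80cKO library 5, with the others at 34.4 to 35.6 CPM.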

How the results depend on the processing

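Over 20 alternatives, 19 of the 28 lower calls were kept in all, and no called gene changed direction. Library totals as scaling moved the 46 genes to a median of -0.18 with 4 called higher (19 lower), and the genes of the other machinery and proliferation lists from 38 lower and 8 higher to 20 and 20. Without library 3 of both groups, the median was -0.25, 1 of the 46 was higher, and 25 list genes were lower. With a replicate block 26 of the 46 were lower, 2 higher, 5 list genes were higher, and Espl1 and Spc24 lost their calls; same-numbered libraries correlated between -0.47 and 0.196 in their deviations, and 1 of 5 correlated best with its own number, so the numbers were not taken as pairs. Leaving out 1 library at a time gave 1 to 2 of the 46 higher and 5 to 10 list genes higher, the lowest without Ino80WT replicate 5 or Ino80cKO replicate 2, and 18 to 21 of 33 subunit pairs. The 1 gene lost from the 2 higher calls was Cenpi (Ino80WT 3 or 4, Ino80cKO 1, 2 or 5 left out) or Cenpb (Ino80WT 5). RLE factors or leaving out Rn45s gave 26 lower calls, no filter 27, DESeq2, a filter of at least 1 CPM in 5 libraries and non-robust dispersions 28. Precision differed between uncalled genes: the 95% interval of the log2 fold change ran from -0.09 to 0.18 for Mis12, from -0.43 to 0.18 for Casc5 and from -0.22 to 0.43 for Cenpf, and changes within each interval are not excluded.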
